A study of Homo sapiens with 12 samples.

Results

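The genes described here are 10 transcription factor genes of mesenchymal cells, SNAI1, SNAI2, ZEB1, ZEB2, TWIST1, TWIST2, PRRX1, FOXC2, FOXF1 and FOXF2, out of 58174 genes listed in each expression table. They were chosen by name as regulators of the mesenchymal state, except FOXF2, which joined the list because of its fall in U118, so its U118 values are given as a description without a test. All 10 were found in both tables. The mRNA was measured in the human glioblastoma cell lines U-87 MG and U-118 MG (U87 and U118), in sensitive cells and in resistant cells obtained under 50 µM temozolomide (TMZ), an alkylating drug used against glioblastoma. Each line gave 3 sensitive and 3 resistant libraries, 12 in all. By the study's methods, both kinds of cells go back to sorted CD133-CD15- cells grown in serum with BMP2, and the resistant cells are aggregations that grew out of a small number of survivors after weeks of drug. No source states that the replicates were separate cultures, so p-values measure the spread between these libraries, which may be technical.

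These factors bind DNA through different domains. SNAI1, SNAI2, ZEB1 and ZEB2 are zinc finger proteins that bind E-box motifs and repress epithelial genes such as CDH1, while TWIST1 and TWIST2 are basic helix-loop-helix proteins that pair with E proteins. PRRX1 is a homeobox factor of limb and craniofacial mesenchyme, and FOXC2, FOXF1 and FOXF2 are forkhead factors of mesoderm-derived mesenchyme, with FOXF1 and FOXF2 known as targets of Hedgehog signalling. In glioblastoma, where cells do not start from an epithelium, several of them are associated with the mesenchymal expression state.

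Values are TPM, a measure of transcript abundance given as a share of each library's total scaled for transcript length. Read counts were not used here, so depth is unknown and errors are the spread between libraries. Mitochondrially encoded genes took 12.9% to 16.9% of TPM in U87 sensitive, 22.2% to 23.7% in U87 resistant, 7.42% to 19.7% in U118 sensitive and 13.2% to 29.9% in U118 resistant libraries. The median gene changed by -0.24 in U87 and -0.52 in U118 on the log2(TPM + 1) scale, resistant minus sensitive, and by -0.01 and -0.02 after median-ratio scaling of the libraries. The U118 resistant libraries stood apart from their own line. Over 18525 genes their rank correlation with U118 sensitive libraries was 0.821 to 0.845, and with U87 libraries 0.902 to 0.918. The identity of the U118 resistant libraries was not tested, and every U118 value given here compares the libraries as labelled. A change of expression within the cells and a different cell population cannot be told apart in these bulk samples, nor can fewer cells of a type and less RNA per cell. Of the glial or neural markers looked at, AQP4, SOX10, GFAP, S100B and SOX2 stayed under 1 TPM in all 12 libraries.

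FOXF2 (ENSG00000137273, chr6:1389576-1395603, plus strand, GRCh38) had 205, 219.8 and 228 TPM in the 3 U118 sensitive libraries and was listed at 0 in the 3 U118 resistant libraries. It was also listed at 0 in all 6 U87 libraries. Thus a single group of the 4 held FOXF2 mRNA, at 217 ± 11.7 TPM (mean ± SD, n = 3), and there it had the highest mean TPM of the 10 genes, with 29.2% to 36.3% of their summed TPM. All 12 housekeeping genes looked at were above 0 in every library. Among 252 genes that were at 1 TPM or more in every U118 sensitive library and at 0 in every U118 resistant library, FOXF2 ranked 2 by its sensitive mean, and 180 of them were also at 0 in all 6 U87 libraries.

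The annotated RNA next to FOXF2 on the other strand, FOXF2-DT (chr6:1383790-1385066, no overlap with FOXF2), had 13.4, 14.6 and 8.46 TPM in U118 sensitive libraries and 0 in all U118 resistant ones. It did not exceed 0.0554 TPM in U87. These values are a description, since the RNA was looked at for its place beside FOXF2.

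TWIST2 (ENSG00000233608, chr2:238848032-238910543, plus strand) showed a like pattern in U118, with 68.4, 58.7 and 54.4 TPM in sensitive and 0, 0 and 0 in resistant libraries. TWIST2 entered the U118 fit only through its sensitive libraries, so its call there could hardly fail and no p is given for it. No fold is given either, because the resistant group is listed at 0 and the fitted size depends on the pseudocount. Unlike FOXF2, TWIST2 was detected in U87, at 2.06, 2.99 and 2.21 TPM in sensitive and 3.23, 3.37 and 5.29 TPM in resistant libraries. Those groups did not overlap, but the difference of 0.52 ± 0.21 (log2, SE) did not pass (adjusted p = 0.0886). The U118 resistant cells thus held less TWIST2 than either U87 group.

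The bases just before the annotated starts of FOXF2 and TWIST2 are shown because these 2 genes were listed at 0 in every U118 resistant library. They come from RefSeq promoter entries of GRCh38.p14, which were matched for FOXF2, TWIST2, PRRX1, ZEB2 and ZEB1, with capitals marking the CG dinucleotides, the sites that DNA methylation uses. The first run covers chr6:1389326-1389575 and the second chr2:238847835-238848031, both on the plus strand.
FOXF2: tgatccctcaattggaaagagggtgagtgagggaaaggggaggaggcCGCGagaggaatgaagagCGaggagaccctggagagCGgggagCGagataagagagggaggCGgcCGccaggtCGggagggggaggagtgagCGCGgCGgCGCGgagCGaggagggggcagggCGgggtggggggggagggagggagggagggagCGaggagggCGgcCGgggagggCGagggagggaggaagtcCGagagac
TWIST2: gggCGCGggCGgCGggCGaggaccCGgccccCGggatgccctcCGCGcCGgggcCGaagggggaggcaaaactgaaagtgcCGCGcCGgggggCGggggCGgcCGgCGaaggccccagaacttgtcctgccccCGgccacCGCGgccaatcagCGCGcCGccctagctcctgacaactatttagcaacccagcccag

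The FOXF2 run of 250 bases held 20 CG and the TWIST2 run of 197 bases held 24. The full entries of 300 bases run from 250 before to 50 after the RefSeq start. In them FOXF2 had 26 CG and TWIST2 had 29, against a median of 14 (quartiles 4 and 28) over 35116 promoters. PRRX1 had 11 and ZEB2 had 14 in theirs, and the 7 ZEB1 entries ranged from 7 to 35. FOXQ1 and FOXC1, forkhead genes near FOXF2, had 35 and 40. The RefSeq start is not always the start of the gene positions given here. The PRRX1 entry (chr1:170663881-170664180) and the ZEB2 entry (chr2:144520070-144520369) lie inside their genes, and the TWIST2 RefSeq start lies inside its gene. The CG counts were thus taken at unlike places. ZEB1 and FOXC1 were not called in either line. The E-box letters CACCTG, or CAGGTG on the other strand, were not in the FOXF2, TWIST2, PRRX1 or ZEB2 entries, and 20.6% of all promoters held them. Of the 7 ZEB1 entries, for 7 annotated starts close together, 1 held CACCTG once on either strand, 1 held it 3 times, and another held GTAAACA 2 times. The forkhead letters GTAAACA, or TGTTTAC on the other strand, were also not in the FOXF2, TWIST2, PRRX1 or ZEB2 entries, and 3.42% of all promoters held them. DNA methylation was not measured.

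FOXC2 (ENSG00000176692, chr16:86566829-86569728, plus strand), a factor of vascular and lymphatic mesenchyme, was lower in U118 resistant cells but kept a clear level. It had 82.8, 80.9 and 120.2 TPM in sensitive and 30.2, 26.2 and 26.9 TPM in resistant libraries, so the groups did not overlap. The log2 fold change was -1.71 ± 0.23 (SE, limma adjusted p = 0.000321). In U87 a single sensitive library held 0.0854 TPM and the other five 0, so the gene was below the filter of 1 TPM in 3 libraries. In contrast to FOXF2 and TWIST2, FOXC2 was therefore present in U118 resistant and near absent in U87 cells. The overlapping antisense RNA FOXC2-AS1, which shares 933 bases with FOXC2, had 13.2, 9.85 and 5.33 TPM in U118 sensitive and 8.15, 3.60 and 4.23 TPM in U118 resistant libraries, where the difference did not pass (-0.72 ± 0.37, adjusted p = 0.134). Whether the counting used strand is not stated, so reads in the shared bases could count for either gene.

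FOXF1 (ENSG00000103241, chr16:86510527-86515418, plus strand), the closest relative of FOXF2, was low in all groups. U87 sensitive libraries had 1.34, 1.33 and 1.83 TPM and resistant ones 0.732, 0.416 and 0.919 TPM, without overlap. Its difference of -0.57 ± 0.17 (log2, SE) stayed under the fold limit used for calls. FOXF1 passed the U87 filter only through its sensitive libraries, so this difference is a description and no p is given. In U118 it had 0.349, 0.753 and 0.635 TPM in sensitive and 0.173, 0.376 and 0.282 TPM in resistant libraries, which overlapped and lay below the filter. FENDRR, the noncoding RNA upstream of FOXF1 on the other strand, stayed under 1 TPM in all 12 libraries.

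PRRX1 (ENSG00000116132, chr1:170662728-170739419, plus strand) differed in opposite directions in the lines. In U118 it had 85.4, 78.4 and 122.7 TPM in sensitive and 31.4, 16.2 and 18.5 TPM in resistant libraries. It was called lower there at -2.09 ± 0.29 (log2 fold change, SE, adjusted p = 0.000456). In U87 it had 5.41, 11.0 and 5.93 TPM in sensitive and 13.8, 12.4 and 13.8 TPM in resistant libraries, without overlap. That difference of 0.82 ± 0.25 had an adjusted p of 0.0381 and was under the fold limit. Sensitive library 2 set its size, since without that library the U87 difference was 1.10 and PRRX1 was called higher.

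TWIST1 (ENSG00000122691, chr7:19020991-19117672, minus strand), known from craniofacial mesenchyme, was not called in either line. It had 38.7, 36.5 and 34.4 TPM in U118 sensitive and 32.7, 21.4 and 20.9 TPM in U118 resistant libraries, which did not overlap. The difference of -0.56 ± 0.24 did not pass (adjusted p = 0.0752), and it came to -0.02 after median-ratio scaling. In U87 the values were 7.83, 10.1 and 10.8 TPM in sensitive and 13.6, 15.7 and 13.6 TPM in resistant libraries. These were apart as well, with a difference of 0.54 ± 0.15 and an adjusted p of 0.0311, under the fold limit.

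SNAI2 (ENSG00000019549, chr8:48917604-48921740, minus strand), also known as SLUG, had the highest mean TPM of the 10 genes in every group but U118 sensitive. It had 48.3, 68.3 and 51.7 TPM in U87 sensitive and 91.0, 90.2 and 101.3 TPM in U87 resistant libraries. Those groups did not overlap, and the difference of 0.75 ± 0.14 (adjusted p = 0.00569) was under the fold limit, although it reached 1.01 after median-ratio scaling and was then called higher. In U118 it had 89.8, 85.0 and 160.9 TPM in sensitive and 95.1, 79.3 and 78.4 TPM in resistant libraries, which overlapped. No change was called there (-0.35 ± 0.27, adjusted p = 0.306), and the sign turned to 0.21 after scaling. Sensitive library 3, at 160.9 TPM, carried most of the difference, which was -0.06 without it and -0.51 without sensitive library 2.

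SNAI1 (ENSG00000124216, chr20:49982999-49988886, plus strand), a factor known for rapid turnover of its protein, did not exceed 1.68 TPM in any library. In U87 it had 1.22, 1.06 and 0.938 TPM in sensitive and 1.68, 1.60 and 1.49 TPM in resistant libraries, apart but not past the test (0.32 ± 0.13, adjusted p = 0.0864). In U118 it had 0.731, 0.605 and 0.976 TPM in sensitive and 0.161, 0.130 and 0.306 TPM in resistant libraries. The latter groups did not overlap either, but SNAI1 was below the filter in U118.

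ZEB2 (ENSG00000169554, chr2:144364364-144524583, minus strand) was called lower in U118. Its values were 32.5, 39.3 and 46.6 TPM in sensitive and 17.1, 14.9 and 16.5 TPM in resistant libraries, without overlap. The log2 fold change was -1.22 ± 0.22 (adjusted p = 0.00183), and after median-ratio scaling it was -0.68 (adjusted p = 0.0357), under the fold limit. In U87 it had 12.6, 23.7 and 15.1 TPM in sensitive and 22.4, 14.6 and 16.6 TPM in resistant libraries. Those values overlapped, with a difference of 0.08 ± 0.25 (adjusted p = 0.823). The antisense RNA ZEB2-AS1 did not exceed 1.77 TPM in any library.

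ZEB1 (ENSG00000148516, chr10:31318495-31529814, plus strand) overlapped between sensitive and resistant cells in both lines. It had 2.48, 4.15 and 2.79 TPM in U87 sensitive and 3.66, 2.83 and 2.33 TPM in U87 resistant libraries (-0.07 ± 0.21, adjusted p = 0.834). In U118 the values were 8.75, 6.11 and 11.0 TPM in sensitive and 4.41, 3.39 and 8.07 TPM in resistant libraries (-0.65 ± 0.33, adjusted p = 0.127). Neither difference passed the test.

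**Figure D1:**
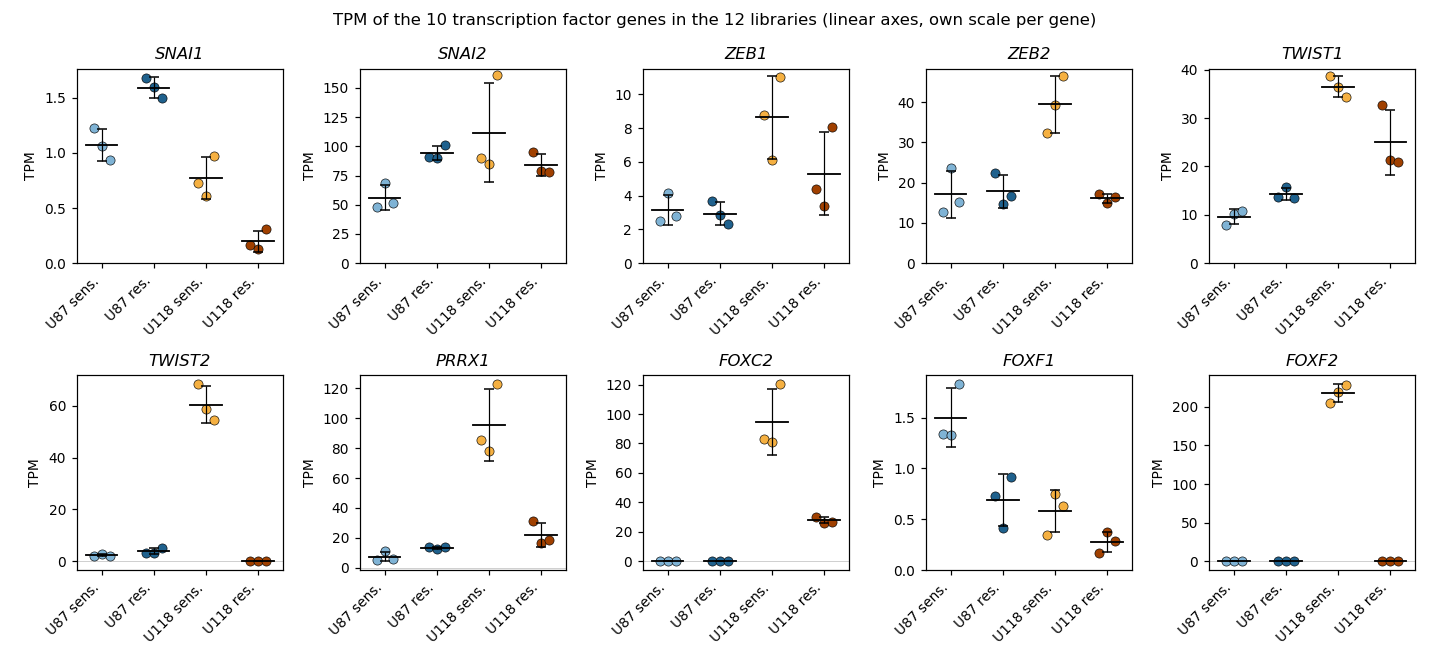
TPM of the 10 genes in the 12 libraries (y axis, linear, with its own scale for each gene) in the 4 groups (x axis); points are libraries, horizontal lines means and bars SDs over 3 libraries. FOXF2 and TWIST2 stand above 0 in U118 sensitive and at 0 in U118 resistant libraries, and FOXC2 is near 0 in U87.

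Calls were made with limma over every gene that reached 1 TPM in 3 or more of the 6 libraries of its line. A call needed an adjusted p (Benjamini-Hochberg) below 0.05 together with a log2 fold change of 1 or more in either direction, the fold limit named above. Of the 10 genes, 8 passed that filter in U87 (FOXF2 and FOXC2 did not) and 8 in U118 (SNAI1 and FOXF1 did not). In U87, 0 of the 8 tested were called higher and 0 lower, where 3.03% of all 13845 genes tested were called higher and 7.79% lower. At an unadjusted p under 0.05, 6 of the 8 passed, against 48.5% of all genes. At an adjusted p under 0.05 with no fold limit, 3 were higher (SNAI2, TWIST1 and PRRX1) and 1 lower (FOXF1), against 9.43% and 29.7% of all genes. The sensitive and resistant groups did not overlap for 5 of them with resistant higher and for 1 with resistant lower, against 13.6% and 39.8% of all genes. FOXF1 is counted among the 6 that passed and is the 1 lower gene in both of the last counts. It passed the filter only through its sensitive libraries, so its part in these counts is a description.

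In U118, 4 of the 7 tested genes other than FOXF2 were called lower (TWIST2, PRRX1, FOXC2 and ZEB2) and 0 higher, where 26.6% of all 15527 genes tested were called lower and 8.64% higher. Without TWIST2, 3 of 6 were called lower. At an unadjusted p under 0.05, 5 of the 7 passed, each lower, against 44.4% of all genes that passed and were lower. After median-ratio scaling the counts were 3 and 0, without ZEB2, while over all genes the split turned from 1341 higher and 4134 lower to 2337 higher and 1981 lower. The groups did not overlap, with resistant lower, for 5 of these 7, against 42.9% of all genes. A gene under 1 TPM in every library of one group, as TWIST2 in U118 or FOXF1 in U87, passes the filter only through the other group and had to differ. Its call or p is therefore a description, and this holds for every such gene named or counted here.

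**Figure D2:**
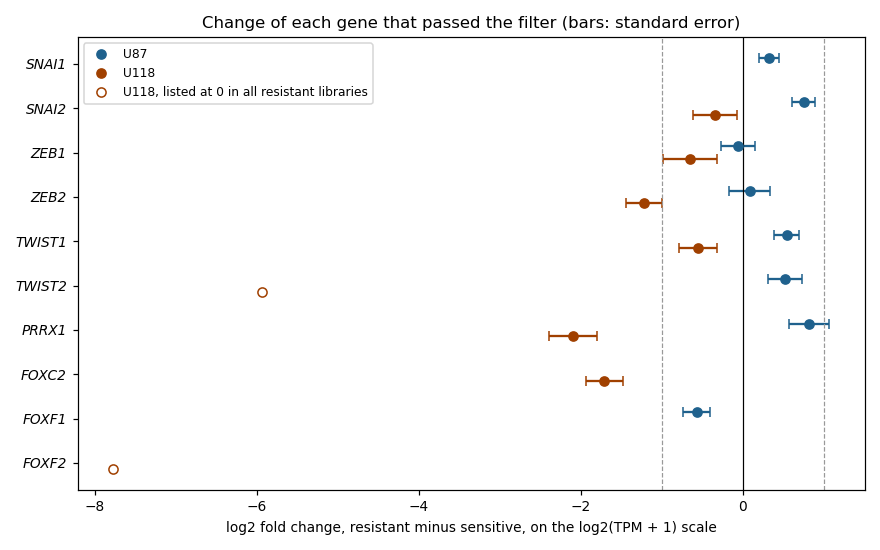
Log2 fold change of each gene that passed the filter, resistant minus sensitive on the log2(TPM + 1) scale (x axis), with SE bars, in U87 and U118; dashed lines mark the fold limit of 1. Open circles are FOXF2 and TWIST2 in U118, whose position depends on the pseudocount since the resistant libraries are at 0, and FOXF2 is shown without a test.

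The change differed between the lines for most of these genes. The difference of the changes, each taken within its own table, was tested as an interaction over the 12 libraries, and 7 of the 9 genes other than FOXF2 passed at an adjusted p under 0.05, each lower in U118, where 22.6% of 16382 genes tested passed in that direction and 38.1% in either. PRRX1 differed by -2.91 ± 0.40 (log2, SE, adjusted p = 0.000108) and FOXC2 by -1.67 ± 0.26. FOXC2 is counted among the 7, but it was near 0 in all U87 libraries. Its difference thus repeats its U118 change of -1.71 and is a description. ZEB2 differed by -1.31 ± 0.33 (adjusted p = 0.00805), TWIST1 by -1.10 ± 0.27 (adjusted p = 0.00717) and SNAI2 by -1.10 ± 0.32 (adjusted p = 0.0165). For SNAI2 the adjusted p was 0.0510 after median-ratio scaling. SNAI1 differed by -0.88 ± 0.18 at these low levels. It was under 1 TPM in all U118 libraries and passed the filter only through U87 libraries, so its pass is a description and has no p here. TWIST2 is counted among the 7 as well, but its U118 resistant libraries were at 0, so its pass is a description. No p is given for it. Of the 6 genes that passed the filter in both lines, which leaves out FOXC2, SNAI1 and FOXF1, 5 had such a difference, TWIST2 among them. ZEB1 (-0.59 ± 0.42, adjusted p = 0.290) and FOXF1 (0.27 ± 0.22, adjusted p = 0.363) did not pass.

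Across the 4 groups the levels fell into different orders, read without a test because the table of each line was normalised on its own. The summed TPM of the 10 genes was 81.3 to 122.8 in U87 sensitive, 141 to 155 in U87 resistant, 606 to 780 in U118 sensitive and 162 to 211 in U118 resistant libraries, so U118 resistant lay just above U87 resistant. PRRX1 and TWIST1 had the same order, with U118 sensitive first, then U118 resistant, U87 resistant and U87 sensitive, and neighbouring groups did not overlap. For ZEB2, U118 sensitive was above the other three groups, which overlapped each other. SNAI2 overlapped among U118 sensitive, U87 resistant and U118 resistant, with U87 sensitive below them. ZEB1 overlapped at every step, and SNAI1 was highest in U87 resistant libraries, without overlap with the next group.

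Neighbouring genes were looked at for each factor. Around FOXF2 on chromosome 6, the forkhead gene FOXQ1, 74.8 kb away, was also at 0 in U87 and had 1.02, 1.14 and 1.12 TPM in U118 sensitive and 0 in U118 resistant libraries. On the other side FOXC1, a close relative of FOXC2 at 214 kb, had 4.65, 4.21 and 5.91 TPM in U118 sensitive and 3.37, 2.79 and 3.25 TPM in U118 resistant libraries and was not called (-0.51 ± 0.22, adjusted p = 0.0831). GMDS, an enzyme of GDP-fucose synthesis at 228 kb, was called lower (-1.11 ± 0.21, adjusted p = 0.00267), with 23.9, 26.0 and 20.5 TPM in sensitive and 10.03, 10.6 and 10.3 TPM in resistant libraries. EXOC2, an exocyst subunit at 696 kb, was called lower as well (-1.17 ± 0.31, adjusted p = 0.0121), while DUSP22, WRNIP1 and SERPINB1 were not called in U118 and HUS1B, IRF4 and MYLK4 were below the filter. The fall to 0 was thus shared by FOXF2, FOXF2-DT and FOXQ1 and not by EXOC2, FOXC1 or GMDS, which flank them and stayed above 0 in all 12 libraries.

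**Figure D3:**
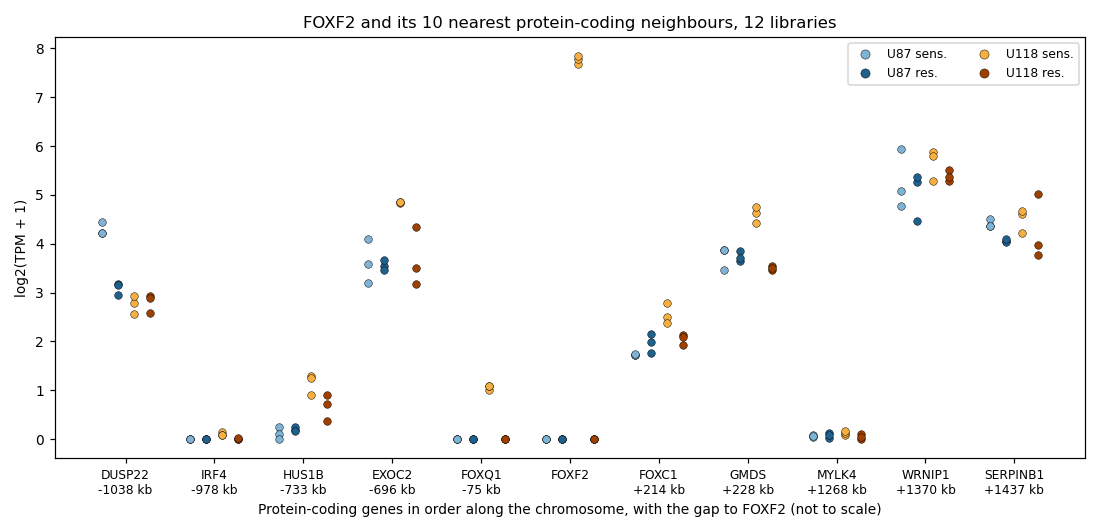
Log2(TPM + 1) of FOXF2 and its 10 nearest protein-coding neighbours (y axis) in the 12 libraries, in chromosome order with the gap to FOXF2 in kb (x axis, not to scale); points are libraries, coloured by group. FOXF2 and FOXQ1 are at 0 outside U118 sensitive libraries, while FOXC1 and GMDS are above 0 in all 12.

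On chromosome 16 the forkhead genes FOXF1, FOXC2 and FOXL1 lie together and did not move together. FOXL1, a mesenchymal factor 6.6 kb beyond FOXC2, was called higher in U118, with 24.3, 25.9 and 19.2 TPM in sensitive and 94.8, 39.5 and 42.9 TPM in resistant libraries (1.21 ± 0.33, adjusted p = 0.0150), where FOXC2 was called lower. In U87 it had 3.14, 3.14 and 2.98 TPM in sensitive and 6.22, 6.32 and 6.37 TPM in resistant libraries, a difference of 0.84 ± 0.13 (adjusted p = 0.00270) under the fold limit. MTHFSD, between FOXF1 and FOXC2, was not called in U118 (-0.87 ± 0.28, adjusted p = 0.0274). HDAC4 and ASB1, next to TWIST2, were not called in either line, and neither were HDAC9 next to TWIST1, GORAB next to PRRX1, GTDC1 next to ZEB2, or ZNF438 and ARHGAP12 next to ZEB1. RNF114, 29.1 kb from SNAI1, was called lower in U118 (-2.37 ± 0.26, adjusted p = 0.000117), and so was ACVR2A, the nearest protein-coding gene on the other side of ZEB2, 3319.9 kb away (-1.09 ± 0.29, adjusted p = 0.0120).

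The pattern most like that of FOXF2 over the 12 libraries, by Pearson r of log2(TPM + 1), belonged to SFRP1, an extracellular Wnt antagonist, followed by GMPR, a GMP reductase, ZNF429, MAGEA3, a cancer-testis antigen gene, and FSTL5. All 5 were at 0 in the 9 libraries outside U118 sensitive. SFRP1 had 84.6, 86.7 and 93.2 TPM in U118 sensitive libraries and GMPR 28.2, 28.6 and 28.5 TPM. In all, 356 of 16381 other genes had r over 0.99, which reflects the contrast of 3 libraries with 9 and no finer order. MAGEA3 has near-identical copies in its family, so its own value is uncertain.

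Partners and regulators of these factors were counted in the same fits, and their counts stand beside 3.03% of all genes called higher and 7.79% lower in U87, and 8.64% and 26.6% in U118. Of 7 E proteins and ID inhibitors, the partners of TWIST factors and the proteins that sequester them, 0 were called in U87 and 3 were called lower in U118 (TCF12, ID1 and ID4), with a median log2 fold change of -0.99 against -0.52 over all genes. ID1 had 1179, 1088 and 741 TPM in U118 sensitive and 345, 198 and 196 TPM in U118 resistant libraries, and ID4 was at 0 in the latter. Of 10 corepressors that SNAI and ZEB proteins recruit, 1 was called lower in U87 (SUV39H1, -1.64 ± 0.13, adjusted p = 0.000198), and 3 in U118 (SUZ12, HDAC1 and CTBP1), none of which was called after median-ratio scaling. Those shares of calls are near the ones over all genes. All 10 corepressors had a lower value in both lines, with a U87 median of -0.61 against -0.24 over all genes. With no fold limit, 7 of 10 had an adjusted p under 0.05 in U87, against 29.7% of all genes that were lower. After scaling 4 of 10 had it in U87, and in U118 6 of 10 had a lower value. Of 6 genes that set SNAI1 stability, LOXL2, a lysyl oxidase known to protect SNAI1, was called higher in both lines. It had 106, 105 and 109.7 TPM in U87 sensitive, 309, 280.3 and 300.2 TPM in U87 resistant, 49.4, 52.8 and 52.2 TPM in U118 sensitive and 191, 109.6 and 116 TPM in U118 resistant libraries. FBXO11 and GSK3B, which mark SNAI1 for degradation, were called lower in U118 and not after scaling. Of 10 inducers, TGFB3 was called higher in U87 (1.79 ± 0.14, adjusted p = 0.000204), and SMAD7, SMAD4 and TGFB2 were called lower in U118, a split of 0 higher and 3 lower that turned to 3 higher and 0 lower after scaling.

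Hedgehog genes moved both ways in U118. Of 8 tested there, 2 were called higher (GLI2 and BOC) and 3 lower (CDON, HHIP and GAS1), with the same counts after scaling. The coreceptor CDON had 14.03, 17.6 and 15.1 TPM in U118 sensitive and 1.51, 0.669 and 1.37 TPM in U118 resistant libraries (-2.94 ± 0.25, adjusted p = 2.07e-05). The transcription factor GLI2 had 0.895, 1.42 and 1.43 TPM in U118 sensitive and 5.01, 2.79 and 4.69 TPM in U118 resistant libraries (1.18 ± 0.25, adjusted p = 0.00396). The coreceptor GAS1 was called higher in U87 (1.37 ± 0.14) and lower in U118 (-1.99 ± 0.17). It was under 1 TPM in all U87 sensitive and U118 resistant libraries, so both calls are descriptions. GLI1, a direct target of the pathway, was not called in either line.

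Of 41 other forkhead genes, 20 stayed under 1 TPM in all libraries. In U87, 0 of 17 tested were called. In U118, 1 of 18 was called higher (FOXL1) and 8 lower, which became 2 and 2 after scaling, with FOXL2 (-2.63 ± 0.17) and FOXP1 (-2.18 ± 0.23, adjusted p = 9.26e-05) at the greatest falls apart from those to 0. FOXL2 had 5.10, 5.31 and 5.61 TPM in U118 sensitive libraries and at most 0.0370 TPM in the resistant ones, so its call is a description.

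Other factors of mesenchyme and neural crest changed in both directions in U118, where 4 of 15 tested were called higher and 9 lower, or 4 and 8 after scaling, and where the median was -1.40 against -0.52 over all genes. In U87, 1 of 12 was called, DLX5, which was at 0 in sensitive and at 6.04, 3.87 and 6.89 TPM in resistant libraries. The next genes were under 1 TPM in one U118 group or the other, so their calls are descriptions. PRRX2, the relative of PRRX1, had 17.6, 20.4 and 16.8 TPM in U118 sensitive and at most 0.0567 TPM in U118 resistant libraries (-4.21 ± 0.21), and MEOX2 had 6.90, 5.71 and 8.40 TPM and then 0. Both stayed at or under 0.122 TPM in U87. PAX3, a neural crest factor, went the other way, with 0, 0 and 0.0255 TPM in U118 sensitive and 9.14, 7.84 and 7.93 TPM in U118 resistant libraries (3.20 ± 0.19), beside 6.11 to 9.82 TPM in U87. ALX1 (3.05 ± 0.27) and TBX18 (2.47 ± 0.26) had the same pattern, near 0 in U118 sensitive and several TPM in U118 resistant and in both U87 groups. FOXC2 was among the exceptions to this likeness of U118 resistant and U87 libraries, as described above. THY1 had 92.2, 103.6 and 51.2 TPM in U118 resistant and at most 0.127 TPM in U87 libraries. CDH11 had 26.0, 9.52 and 10.1 TPM in U118 resistant and at most 0.0984 TPM in U87 libraries. DLX5 was at 0 in U118 resistant libraries.

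**Figure D4:**
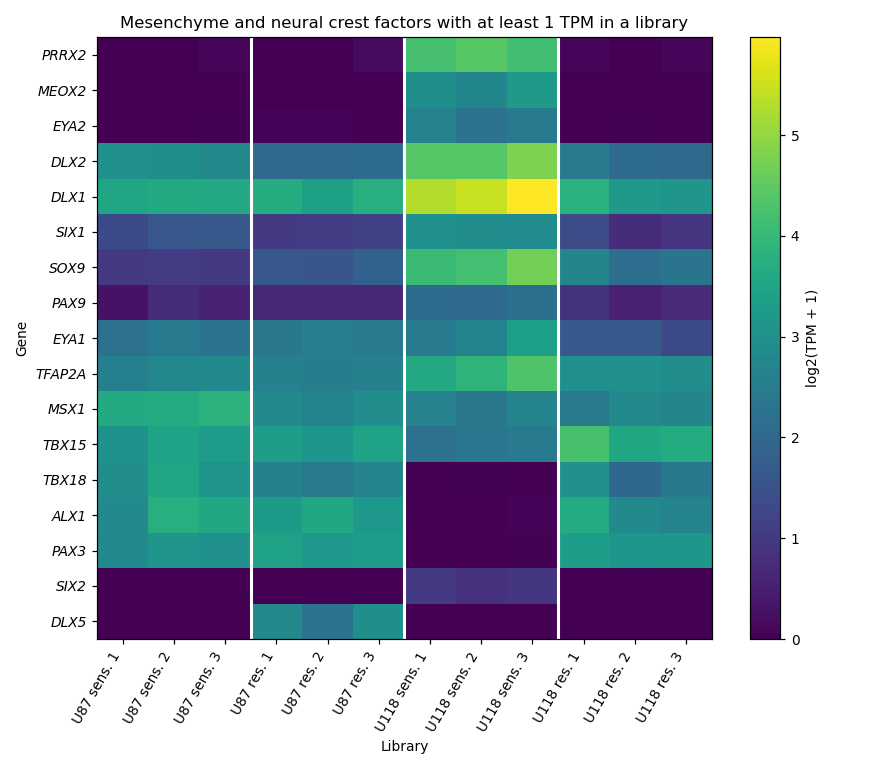
Log2(TPM + 1), as colour, of the mesenchyme and neural crest factors with at least 1 TPM in a library (rows, ordered by log2 fold change in U118, with genes not tested there last) in the 12 libraries (columns). PRRX2, MEOX2 and EYA2 are near 0 outside U118 sensitive libraries, while TBX18, ALX1 and PAX3 are near 0 in U118 sensitive libraries only.

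Mesenchymal effectors, genes that mark the state these factors promote, were counted next. Of 24 mesenchymal effectors, 9 of 21 tested were called higher and 2 lower in U87, with a median of 0.83 against -0.24 over all genes. In U118, 1 of 23 was called higher and 14 lower, with a median of -1.51 against -0.52. Over all genes 3.03% were called higher and 7.79% lower in U87, and 8.64% and 26.6% in U118. After scaling the counts were 12 and 0 in U87 and 2 and 11 in U118. Over all genes they were then 663 and 543 in U87, and 2337 and 1981 in U118. Fibronectin, FN1, had 74.0, 68.2 and 77.9 TPM in U87 sensitive and 973, 785 and 909 TPM in U87 resistant libraries, a rise of 3.58 ± 0.10 (adjusted p = 8.59e-06). In U118 it had 2754, 3309 and 3879 TPM in sensitive and 334, 78.4 and 83.8 TPM in resistant libraries, a fall of 4.65 on the log2 scale (SE 0.50, adjusted p = 9.28e-05). POSTN, a matricellular protein gene, was likewise higher in U87 (2.28 ± 0.23) and lower in U118 (-5.59 ± 0.28). It was under 1 TPM in all U87 sensitive and U118 resistant libraries, so both of its calls are descriptions. In all, 6 effectors, POSTN among them, were called in these opposite directions. AXL, a receptor tyrosine kinase, and TAGLN, an actin-binding protein, were called lower in both U87 (-1.09 and -1.17) and U118 (-1.62 and -2.32). CDH2, which encodes N-cadherin, was called lower in U118 (-1.51 ± 0.26, adjusted p = 0.00135) and had a difference of 0.00 in U87 (SE 0.16, adjusted p = 0.991), while VIM, which encodes vimentin, was not called in either line. ACTA2, which encodes smooth muscle actin, was called higher in U118 (4.38 ± 0.22, adjusted p = 1.12e-06), from 4.19, 6.11 and 4.81 TPM to 131, 115 and 125 TPM.

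**Figure D5:**
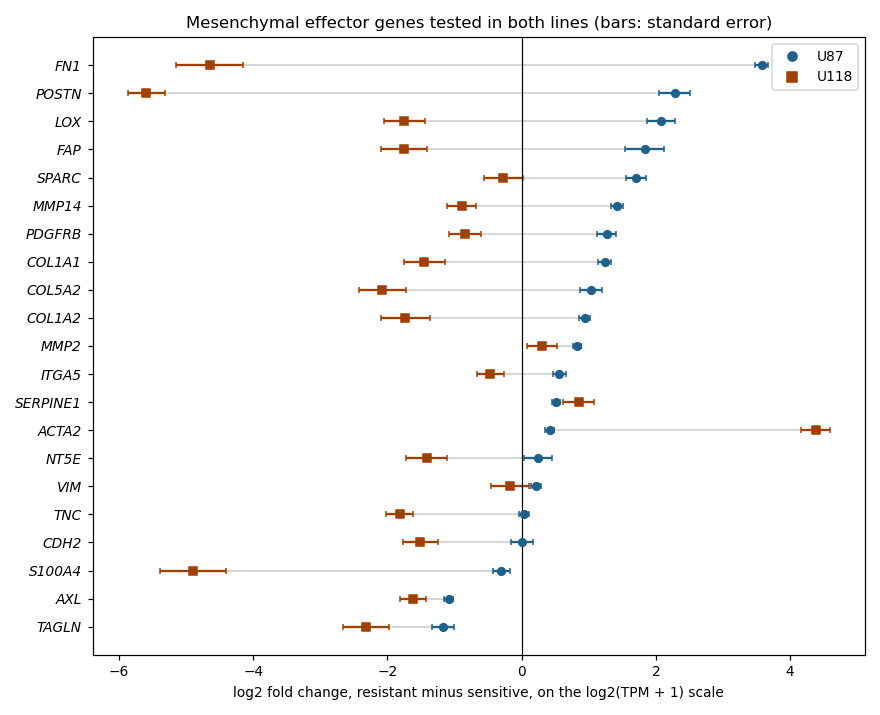
Log2 fold change of the mesenchymal effectors tested in both lines, resistant minus sensitive on the log2(TPM + 1) scale (x axis), with SE bars; circles are U87 and squares U118. FN1 and POSTN lie above 2 in U87 and below -4 in U118, and ACTA2 lies above 4 in U118.

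Epithelial genes that SNAI and ZEB factors repress were mostly low. Of 24, 16 stayed under 1 TPM in all 12 libraries. Among these CDH1 was above 0 in each library, at 0.432, 0.930 and 0.309 TPM in U87 sensitive, 0.115, 0.298 and 0.151 TPM in U87 resistant, 0.0282, 0.0524 and 0.0645 TPM in U118 sensitive and 0.164, 0.126 and 0.765 TPM in U118 resistant libraries. The groups of CDH1 did not overlap in either line, with resistant lower in U87 and higher in U118, and the same held for EPCAM, but both lay below the filter. In U118, KRT8, KRT18, KRT19, CLDN7, ESRP1 and ST14 were also apart with resistant higher. CLDN4, OCLN, ESRP2, GRHL1, LLGL2 and CDS1 were apart with resistant lower. In U87, LLGL2 and KRT8 were apart with resistant higher and CLDN4, CLDN7 and ST14 lower. Over all genes tested, 15.7% and 42.9% were apart higher and lower in U118, and 13.6% and 39.8% in U87. Those shares cover only genes that passed the filter. CDH1, EPCAM, ST14 and LLGL2 were below it in both lines, KRT19, ESRP1, OCLN and ESRP2 in U118 and CLDN7 in U87. The shares are no baseline for these genes. In U87, 0 of 3 tested were called. In U118, 2 of 7 were called higher, KRT8 (2.43 ± 0.30, adjusted p = 0.000195) and CLDN7 (2.35 ± 0.34), and 1 lower, CDS1 (-1.55 ± 0.16). CLDN7 stayed under 1 TPM in all U118 sensitive libraries and CDS1 in all U118 resistant ones, so the calls of both are descriptions. KRT8 had 0.853, 1.75 and 1.15 TPM in U118 sensitive and 16.3, 8.35 and 9.59 TPM in U118 resistant libraries, beside 5.84 to 10.6 TPM in U87.

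Regulators of the mesenchymal state of glioma numbered 14, of which 1 was called higher in U87 and 0 lower, while U118 had 2 higher and 4 lower. The U118 shares lie near those over all genes, and the median of -0.53 was close to the -0.52 over all genes. CEBPD was called higher in both lines (1.01 ± 0.15, adjusted p = 0.00224 in U87, and 1.43 ± 0.30, adjusted p = 0.00406 in U118), BHLHE40 was called higher in U118 (2.16 ± 0.22, adjusted p = 5.80e-05), and YAP1 (-2.44 ± 0.33, adjusted p = 0.000374), TEAD3 and TEAD2 were called lower in U118. CEBPB, FOSL1 and RUNX1 were not called in either line. FOSL1 had 725, 865 and 692 TPM in U87 sensitive and 381, 427 and 336 TPM in U87 resistant libraries, without overlap. That difference of -0.99 ± 0.12 (log2, SE, limma adjusted p = 0.000949) was just under the fold limit.

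Markers of fibroblasts or mural cells were higher in U87 resistant and lower in U118 resistant libraries. Their summed TPM over 8 genes was 53.0 to 59.4 in U87 sensitive, 139 to 158 in U87 resistant, 706 to 960 in U118 sensitive and 178 to 361 in U118 resistant libraries. In U87, 4 of 4 tested were called higher, against 3.03% of all genes. For U118 the calls were 0 higher and 5 lower of 7 tested, against 8.64% and 26.6% of all genes. COL3A1 had at most 1.53 TPM in any library. COL1A1, COL3A1, PDGFRB, FAP and THY1 also belong to the mesenchymal effectors counted above. Among the called markers, only LUM in U87, and LUM and DCN in U118, were not already counted there. The counts of these lists are thus not independent. The glial or neural markers summed to 80.2 to 95.9 TPM in U118 sensitive libraries, with PDGFRA alone at 88.3, 71.8 and 82.9 TPM, and to 9.33 to 26.1 TPM in the other groups. Other glial or neural markers did not follow PDGFRA. NES, which encodes nestin, had 6.95, 7.57 and 5.76 TPM in U118 sensitive and 24.1, 10.4 and 11.3 TPM in U118 resistant libraries, a difference of 0.98 ± 0.33 (adjusted p = 0.0324) under the fold limit. OLIG2 had at most 0.0524 TPM in U118 sensitive and 1.05, 0.570 and 0.934 TPM in U118 resistant libraries, below the filter. The part of these genes in the results on the 10 factors was not tested. PECAM1, CDH5, PTPRC, CD14 and CD3E stayed under 1 TPM in all 12 libraries.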

How the data were processed

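The authors deposited TPM values per gene, 1 table per cell line, made from mRNA libraries of total RNA. The submitters' processing notes name FastQC 0.11.2, Trimmomatic 0.36, HISAT2 2.0, bedtools 2.26.0 and the GRCh38 build, while the quantification tool and annotation are not given in the sources used here. All 12 columns were matched to samples by name, and groups came from the sample titles. TPM keeps no read counts, so no interval for depth could be given, and a mean covers 3 libraries.

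With limma 3.58.1 (R 4.3.3), linear models of log2(TPM + 1) were fitted to the 6 libraries of a line, on genes reaching 1 TPM in 3 or more of them, using lmFit and then eBayes with a mean trend. The difference between lines was fitted over all 12 libraries in the same way. P-values were adjusted by Benjamini-Hochberg over all genes tested. A call required an adjusted p below 0.05 and a change of 1 or more on the log2 scale (for the interaction, the adjusted p only). Fold changes on this scale understate those of low genes. The fit was tested on simulated data. Tables were joined with pandas 2.3.3, and positions are from GENCODE release 29. Promoter sequences are from RefSeq, GRCh38.p14.

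The genes, the companion lists and the tests were chosen with earlier results of these data known. Named genes were the 10 factors, from each list and line at most 3 called genes per direction with the largest fold change and no overlap (defining genes could be named uncalled), the 5 genes most like FOXF2, the nearest protein-coding genes (5 on each side of FOXF2, 1 on each side of the others) and RNAs named after a factor. COL1A1, COL5A2, FAP, LUM, NES, OLIG2, PDGFRA, CDH11 and THY1 lie outside this rule and were named after their values were seen. So were the epithelial genes named only for whether their groups overlapped. Alternatives were a pseudocount of 0.1, no filter, a filter on a mean of 10 TPM, scaling by median ratios, TPM without mitochondrially encoded genes, a replicate block, eBayes with no trend, no fold limit and leaving out each library.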

Additional observations from a re-analysis of the deposited data

Results flagged for a closer look

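Changes from sensitive to resistant cells that differed between the lines, by the interaction test, are given here as U118 minus U87 on the log2(TPM + 1) scale, with limma adjusted p. Among the 10 factors these were SNAI1 (-0.88), SNAI2 (-1.10, adjusted p = 0.0165), TWIST1 (-1.10, adjusted p = 0.00717), ZEB2 (-1.31, adjusted p = 0.00805), FOXC2 (-1.67) and PRRX1 (-2.91, adjusted p = 0.000108). For TWIST2 the fitted difference was -6.46, a size that depends on the pseudocount because U118 resistant libraries are at 0, and no p is given. For each of these 7 the resistant-minus-sensitive change, not the level, was lower in U118 than in U87. FOXC2 was near 0 in all U87 libraries, so its difference repeats its U118 change and is a description. SNAI1 was under 1 TPM in all U118 libraries, so its difference is a description too.

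Of the 21 mesenchymal effectors tested in both lines, 18 had an adjusted p under 0.05 for this difference, 17 of them lower in U118. The genes of the companion and marker lists that were called higher in U87 and lower in U118 are given with their differences; they were picked by those opposite calls, so that the difference passes adds no support. They were FN1 (-8.22, adjusted p = 3.19e-07), POSTN (-7.87), LUM (-4.70, adjusted p = 9.09e-07), LOX (-3.82, adjusted p = 8.91e-06), FAP (-3.59, adjusted p = 8.72e-05), GAS1 (-3.36), COL5A2 (-3.11, adjusted p = 7.95e-05) and COL1A1 (-2.69, adjusted p = 4.86e-05). POSTN and GAS1 were under 1 TPM in all U87 sensitive and U118 resistant libraries, so their values are descriptions. Groups of 3 libraries were not searched for outliers.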

How the results depend on the processing

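The U118 counts of 4 lower and 0 higher and the count of 7 differences between the lines stayed within 1.5 times under the alternatives run. In U87 the count of factors called higher, 0, became 2 under median-ratio scaling (SNAI2 and PRRX1) and 3 with no fold limit, and ranged from 0 to 1 when single libraries were left out (PRRX1 without sensitive replicate 2). The count called lower, 0, became 1 with a pseudocount of 0.1 (FOXF1, -1.06) and 1 with no fold limit (FOXF1). FOXF1 passed the U87 filter only through its sensitive libraries, so both are descriptions. Signs turned for values inside their error. ZEB1 in U87 turned to 0.14 under scaling and 0.041 without mitochondrially encoded genes, and ranged from -0.19 to 0.10 when single libraries were left out (above 0 without sensitive replicate 2 or resistant replicate 3). ZEB2 in U87 ranged from -0.10 to 0.33 in the same way (below 0 without sensitive or resistant replicate 1), and SNAI2 in U118 turned to 0.21 under scaling and ranged from -0.51 to -0.06 when single libraries were left out. Scaling removes the shift of the median gene by its construction; for the other changes the cause was not tested. In U87 scaling turned the split of all calls from 419 higher and 1078 lower to 663 and 543. With the replicate number as a block the counts were 0 and 0 in U87, 4 lower and 0 higher in U118, and 7 between the lines; PRRX1 and TWIST1 in U87 had adjusted p of 0.0737 and 0.0640. Same-numbered libraries correlated by 0.01, -0.07 and -0.04 in U87 and 0.14, 0.05 and 0.10 in U118, so the numbers were not taken as pairs. TPM without counts limits what can be said of genes near 1 TPM, SNAI1 and FOXF1 among them.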
